A study of Mus musculus with 12 samples.

Results

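The synaptonemal complex and HORMA genes are *Sycp2*, *Sycp3*, *Hormad1*, *Hormad2*, *Sycp1*, *Syce1*, *Syce2*, *Syce3* and *Tex12*, which encode structural proteins of meiotic chromosomes. They were picked by gene symbol from the count tables of an RNA-seq study of mouse sperm and testes, and all 9 were present, among 51826 entries for sperm and 23502 for testes. The study asked which genes depend on the paralogous factors *Xap5l* (gene symbol *Fam50b*) in sperm and *Xap5* (*Fam50a*) in the germ cells of the testis. Cauda epididymal sperm came from males at postnatal day 56 (P56), either WT or *Xap5l* KO, and testes of WT and *Xap5* cKO males at P16. Each of the 4 groups had 3 libraries, which the submitters describe as biological replicates. The floxed *Xap5* and the *Xap5l* KO lines were made on the C57BL/6J background, and the background of the Cre line is not given in the sources used here. *Xap5l* was deleted in the whole animal with CRISPR/Cas9, whereas *Xap5* cKO males carried a floxed *Xap5* allele and a *Stra8*-GFPCre knockin, whose Cre acts in germ cells. The testis controls are labelled WT, whereas the study elsewhere names floxed *Xap5* males (fl/Y) as controls of the cKO, so which of these the WT testis values represent is not known here. Libraries held between 38881197 and 52308452 counts for sperm and between 32251198 and 36759054 for testes.

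The synaptonemal complex is a protein ladder that joins homologous chromosomes in prophase of the first meiotic division. SYCP2 and SYCP3 build the axial elements, which become the lateral elements of the ladder, and HORMAD1 and HORMAD2 sit on axes that have not yet synapsed and take part in break formation and in the surveillance of unsynapsed chromosomes. SYCP1 spans the space between the axes as the transverse filament, and SYCE1, SYCE2, SYCE3 and TEX12 form the central element. In the mouse testis these genes are known for expression in spermatocytes, from meiotic entry to the pachytene stage.

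The targeted genes were read first in each sample. *Xap5l* had 574, 440 and 419 counts across WT sperm, against 18, 23 and 8 across *Xap5l* KO sperm, in the direction of the labels. *Xap5* had 819, 811 and 988 counts across WT testes, against 673, 616 and 651 across *Xap5* cKO testes. The genotypes did not overlap for either gene, but most *Xap5* counts were still present in the cKO. Whole-testis RNA includes somatic cells, in which a *Stra8*-driven Cre does not act, and counts over a whole gene do not separate its deleted part. *Xap5l* itself had 532, 539 and 197 counts across WT testes, against 6, 0 and 7 across *Xap5* cKO testes.

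The labelled tissues were compared with their markers. P16 testes carried the pan germ cell markers, led by *Dazl* at 891 CPM in WT (counts scaled to a common library size with TMM), and Sertoli cell markers, led by *Clu* at 3371 CPM. Spermatids were close to absent, as *Prm2*, *Prm3* and *Smcp* had 0 counts in all 6 testis libraries and only 2 of 10 elongating spermatid markers had enough counts to be tested. Sperm libraries held spermatid transcripts such as *Smcp*, at 48693 CPM in WT. They also held RNA of other cells, with the epididymal gene *Crisp1* at 6199 CPM, the erythroid gene *Hbb-bs* at 3679 CPM, the Sertoli and epithelial transcript *Clu* at 687 CPM and the leukocyte gene *Lyz2* at 566 CPM in WT.

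In P16 testes, 8 of the 9 genes were downregulated in *Xap5* cKO males, and *Sycp3* was the exception. The 8 genes kept between 31.3% and 44.4% of their WT level, and *Syce1* kept the least. *Sycp3* kept 77.7% and did not reach the fold change threshold. The summed level of the 9 genes was 2629, 2704 and 2268 CPM in WT testes, against 1065, 1149 and 1454 CPM in cKO testes. In bulk testis RNA, fewer spermatocytes and less RNA per spermatocyte cannot be told apart.

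A gene counted as up- or downregulated when its fold change exceeded 2 and its p-value, adjusted over all genes tested, was under 0.05. By this rule, 10.9% of the 16821 genes tested in testes were downregulated and 4.15% were upregulated, against 8 of 9 and 0 of 9 of the synaptonemal complex and HORMA genes. No member was upregulated at an unadjusted p-value under 0.05 or with DESeq2 either. In CPM, all cKO libraries lay below all WT libraries for 8 of the 9 genes, as for 32.4% of all genes tested, and above them for 0 of 9, against 29.9% of all genes tested. The median log2 fold change of the members was -1.24, while that of all tested genes was -0.01 with quartiles of -0.49 and 0.45. The p-values set the difference between genotypes against the spread between the libraries of a genotype.

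**Figure D1:**
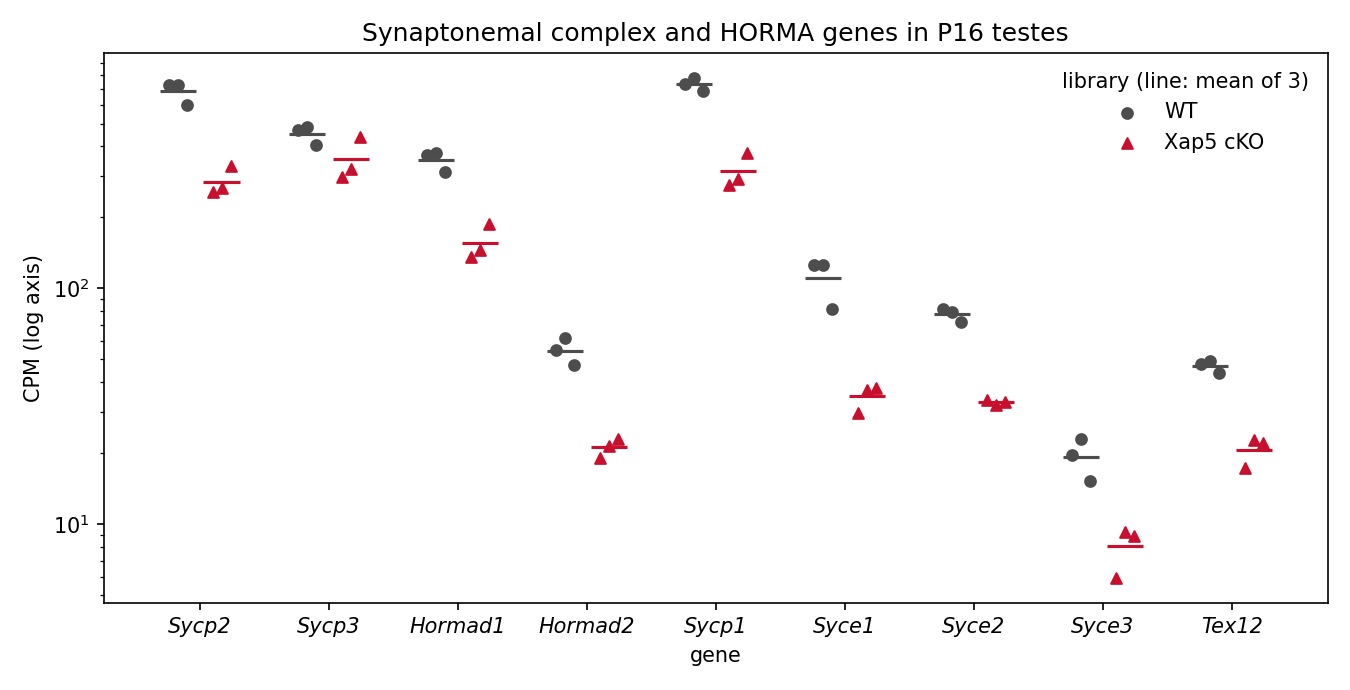
Level of each gene in each P16 testis library, as CPM on a log axis, with WT as grey circles, *Xap5* cKO as red triangles and the mean of 3 libraries as a line. The cKO libraries lie below the WT libraries for 8 genes, and for *Sycp3* cKO replicate 3 (439 CPM) lies above WT replicate 3 (405 CPM).

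Among the axial and lateral element genes, *Sycp2* and *Sycp3* differed in how far they fell. *Sycp2* (GRCm38 chromosome 2, 178345293 to 178407685) showed 24383, 26604 and 21561 counts across WT testes, against 8215, 9068 and 10825 across *Xap5* cKO testes. Every cKO library held fewer counts than the lowest WT library, and cKO replicate 3 was the highest of its group. Its level fell from 685 ± 74.3 to 283 ± 39.6 CPM (mean ± SD, n = 3), and the log2 fold change was -1.27 (standard error, SE, 0.110). The adjusted p-value was 3.1e-05 by the quasi-likelihood test of edgeR with Benjamini-Hochberg adjustment.

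*Sycp3* (chromosome 10, 88459569 to 88473236), the partner of *Sycp2* in the axis, had 15797, 17605 and 14587 counts across WT testes, against 9496, 10977 and 14449 across the cKO. All cKO counts were below all WT counts, but in CPM cKO replicate 3 (439) reached the WT range, above WT replicate 3 (405). The level was 453 ± 41.6 CPM in WT and 352 ± 76.3 CPM in the cKO. Its log2 fold change of -0.36 (SE 0.136) had an adjusted p-value of 0.0490 in the same edgeR test, just under the threshold. That value rested on single libraries and settings, since the adjusted p ranged from 0.00141 without cKO replicate 3 to 0.195 without cKO replicate 1 in the edgeR fits that left out 1 library. It was also over 0.05 without WT replicate 1 (0.116), WT replicate 2 (0.143) or cKO replicate 2 (0.181) and with RLE size factors (0.0598) or a replicate block (0.0732), all in edgeR with Benjamini-Hochberg adjustment. In 5 of 7 other fits to all libraries the adjusted p was under 0.05, with 0.0150 in DESeq2. In edgeR it was 0.0371 with at least 10 counts in every library, 0.0447 without a filter and 0.0450 with library size alone. The log2 fold change itself was -0.56 without cKO replicate 3 and -0.24 without cKO replicate 1. *Sycp3* is the only member whose exons overlap those of another gene. It shares 660 exonic bases, 52.2% of its exons and 7.93% of those of *Chpt1*, with *Chpt1* on the other strand, and reads from those bases cannot be told apart unless strand was used. *Chpt1* had 3931, 4086 and 3974 counts across WT, against 4029, 4438 and 4089 across cKO testes, and its part in the *Sycp3* counts was not tested.

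Both HORMA domain genes were downregulated. *Hormad1* (chromosome 3, 95559677 to 95587671) had 12402, 13610 and 11247 counts across WT testes, against 4350, 4970 and 6166 across *Xap5* cKO testes. *Hormad2* (chromosome 11, 4345814 to 4441105) was lower throughout, with 1833, 2246 and 1702 counts across WT, against 612, 734 and 760 across the cKO. Neither gene showed an overlap between genotypes, and WT replicate 3 was the lowest WT library for both. *Hormad1* fell from 352 ± 34.0 to 156 ± 27.5 CPM, with the log2 fold change at -1.17 (SE 0.122, adjusted p = 7.2e-05 in edgeR with Benjamini-Hochberg adjustment). *Hormad2* fell from 54.5 ± 7.15 to 21.2 ± 2.05 CPM, with a log2 fold change of -1.36 (SE 0.125, adjusted p = 4.1e-05 in the same edgeR test).

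The transverse filament gene *Sycp1* (chromosome 3, 102818499 to 102936100) had the most counts of the 9 genes in WT testes, with 24611, 28426 and 24824, although *Sycp2* came close. In *Xap5* cKO testes it had 8822, 9955 and 12307 counts. The genotypes were far apart, with the highest cKO library, replicate 3, at 374 CPM and the lowest WT library at 690 CPM. Its level fell from 734 ± 44.9 to 313 ± 53.1 CPM, with the log2 fold change at -1.23 (SE 0.109, adjusted p = 3.5e-05, the quasi-likelihood test of edgeR with Benjamini-Hochberg adjustment).

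All 4 central element genes were downregulated, and *Syce1* had the lowest share of its WT level among the 9 genes. *Syce1* (chromosome 7, 140777229 to 140787852) had 4239, 4565 and 2954 counts across WT testes, against 951, 1263 and 1243 across the cKO. WT replicate 3 was lower than the other WT libraries and still above every cKO library. The gene fell from 111 ± 25.2 to 34.8 ± 4.54 CPM, with the log2 fold change at -1.68 (SE 0.171, adjusted p = 6.6e-05, same edgeR test). Without WT replicate 3 the log2 fold change was -1.85.

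*Syce2* (chromosome 8, 84872111 to 84888221), which encodes the partner of TEX12, had 2753, 2895 and 2597 counts across WT, against 1079, 1089 and 1088 across the cKO. The cKO libraries were nearly equal, and the fall from 77.9 ± 5.08 to 32.9 ± 0.807 CPM had the smallest standard error of the 9 genes (log2 fold change -1.24, SE 0.0832, adjusted p = 1.3e-05 in the edgeR test). *Tex12* (chromosome 9, 50556819 to 50561325) had 1610, 1800 and 1569 counts across WT, against 556, 777 and 727 across the cKO, or a mean of 47.0 CPM falling to 20.7 CPM. Its log2 fold change of -1.18 (SE 0.125, adjusted p = 7.9e-05 by edgeR) was close to that of *Syce2*.

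*Syce3* (chromosome 15, 89390174 to 89410503), needed to bring the other central element proteins to SYCP1, had the fewest counts of the 9 genes in both genotypes. They were 660, 835 and 546 in WT and 191, 317 and 293 in the cKO. The genotypes were again separate, with a wider spread within each than for *Syce2*. The level fell from 19.2 ± 3.88 to 8.05 ± 1.84 CPM (log2 fold change -1.26, SE 0.222, adjusted p = 0.00127 from edgeR with Benjamini-Hochberg adjustment). The calls of all 8 downregulated genes held in every alternative fit that was run, including each of the 6 that left out 1 library.

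Measured against the other 8 genes in the same library, *Sycp3* moved up in *Xap5* cKO testes. Its log2 CPM minus the mean log2 CPM of the other 8 was 1.81, 1.79 and 1.86 in WT testes, against 2.70, 2.61 and 2.92 in cKO testes. The genotypes did not overlap in this difference, with cKO replicate 3 the highest. The shift was 0.92, with an exact two-sided permutation test giving p = 0.1, the smallest value possible with 3 libraries against 3. *Sycp3* was singled out for its small fall in these same libraries, so this p-value is not independent support. The measure was computed for every member in both tissues, and its p-values were not adjusted. Likewise the ratio of *Sycp3* to *Sycp1* counts was 0.642, 0.619 and 0.588 in WT and 1.08, 1.10 and 1.17 in the cKO. So in WT testes *Sycp3* had fewer counts than *Sycp1* in each library, and in cKO testes it had more. This unequal change does not rest on how the libraries were scaled.

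For *Syce1* and *Hormad2* the same measure was lower in the cKO, in part because the reference holds *Sycp3*. Relative to the other 8 genes, *Syce1* stood at -0.32, -0.40 and -0.73 in WT and at -1.04, -0.90 and -1.06 in the cKO. All cKO values were below all WT values, with a shift of -0.52 (exact two-sided permutation test, p = 0.1). The shift of *Hormad2* was -0.18, also without overlap and with the same exact permutation p of 0.1. The shifts of *Sycp1*, *Sycp2*, *Hormad1*, *Syce2*, *Syce3* and *Tex12* lay between -0.09 and 0.02, and their libraries overlapped between genotypes. Divided by *Sycp1* counts instead, the genotypes overlapped for both genes, with *Syce1* at 0.172, 0.161 and 0.119 in WT and 0.108, 0.127 and 0.101 in the cKO. *Hormad2* stood at 0.0745, 0.0790 and 0.0686 against 0.0694, 0.0737 and 0.0618. *Hormad1*, *Hormad2*, *Syce3* and *Tex12* over *Syce1*, ratios without *Sycp3*, were higher in all cKO libraries than in all WT libraries, with *Hormad1* over *Syce1* at 2.93, 2.98 and 3.81 in WT and 4.57, 3.94 and 4.96 in the cKO. *Sycp2* and *Syce2* over *Syce1* overlapped. With the pan germ cell marker *Ddx4* as reference the direction turned, but *Ddx4* itself fell by more than any member (log2 fold change -2.21). *Dazl*, the most abundant pan germ cell marker, fell less, from 891 to 457 CPM, and was not used as a reference. *Syce1* over *Ddx4* was 0.237, 0.227 and 0.182 in WT and 0.278, 0.352 and 0.317 in the cKO. Every other member over *Ddx4* was also higher in all cKO libraries than in all WT libraries. So the separation of *Syce1*, and its direction, depended on the gene it was set against.

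Compared per length, as CPM per kb of exon, *Sycp3* had the highest level of the 9 genes in WT testes, at 358 ± 32.9 CPM per kb. *Sycp1* and *Hormad1* followed at 206 ± 12.6 and 203 ± 19.6 CPM per kb, and their libraries overlapped. *Sycp2* had 115 ± 12.4 and *Syce1* 76.2 ± 17.3 CPM per kb. *Tex12* (46.2 CPM per kb) was above *Syce2* (39.6) in each library, *Syce2* and *Syce3* (34.8) overlapped, and *Hormad2* was the lowest at 19.9 ± 2.62 CPM per kb. In *Xap5* cKO testes *Sycp3* was again first, at 279 ± 60.4 CPM per kb, ahead of *Hormad1* (90.3) and *Sycp1* (88.1), which overlapped. *Sycp2* followed at 47.5 CPM per kb. The central element genes *Syce1*, *Tex12*, *Syce2* and *Syce3*, at 23.8, 20.4, 16.7 and 14.6 CPM per kb, each overlapped with the next in this order. *Hormad2* was last at 7.76 ± 0.749 CPM per kb.

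Other genes of chromosome axes and synapsis fell together with the members in *Xap5* cKO testes. Of 21 such genes, 14 were downregulated and 0 upregulated, against 10.9% and 4.15% of all genes tested. All cKO libraries were below all WT libraries for 21 of 21, against 32.4% of all genes tested. At an unadjusted p-value under 0.05, and with DESeq2, the count of upregulated genes was also 0. Their median log2 fold change was -1.47, also with the gene at the floor set to its bound, against -0.01 for all tested genes. Their summed level was 2101, 2145 and 1822 CPM in WT and 927, 925 and 965 CPM in the cKO, with *Stag3* the most abundant (422 CPM in WT, 153 CPM in the cKO).

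Among the meiotic cohesin genes, *Stag3* and *Smc1b* fell by 1.47 and 1.40 on the log2 scale and were downregulated, whereas *Rec8* and *Rad21l*, with log2 fold changes of -0.58 and -0.95, did not reach a fold change of 2. Telomere attachment genes reached larger changes, with log2 fold changes of -2.30 for *Terb1*, -2.19 for *Spdya*, -2.01 for *Majin*, -1.85 for *Kash5* and -1.63 for *Terb2*, all downregulated. *Sun1*, a nuclear envelope gene that is also used in somatic cells, had -0.58 and was not called. Of the genes for the axis-bound break machinery, *Mei4* (-2.04), *Ankrd31* (-1.61) and *Iho1* (-1.33) were downregulated and *Rec114* (-0.69) was not. *Mcmdc2* (-1.63), also in the list, was downregulated. *Fbxo47* (-1.17) was downregulated, while *Trip13* (-0.78), which removes HORMA proteins from axes, and *Fkbp6* (-0.35) were not. The central element gene *Six6os1* had a log2 fold change of -0.58, and was not called in spite of an adjusted p of 0.000186 in the quasi-likelihood test of edgeR with Benjamini-Hochberg adjustment. Its level went from 140 ± 6.81 to 93.8 ± 6.41 CPM. The paralogs of the members were scarce and fell. *Syce1l* had 159, 161 and 103 counts across WT, against 18, 32 and 17 across the cKO (log2 fold change -2.57). *Sycp2l* had 18, 22 and 12 counts across WT, against 0, 0 and 0 across the cKO, at least 5.26-fold lower against a floor of 3 counts per library.

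**Figure D2:**
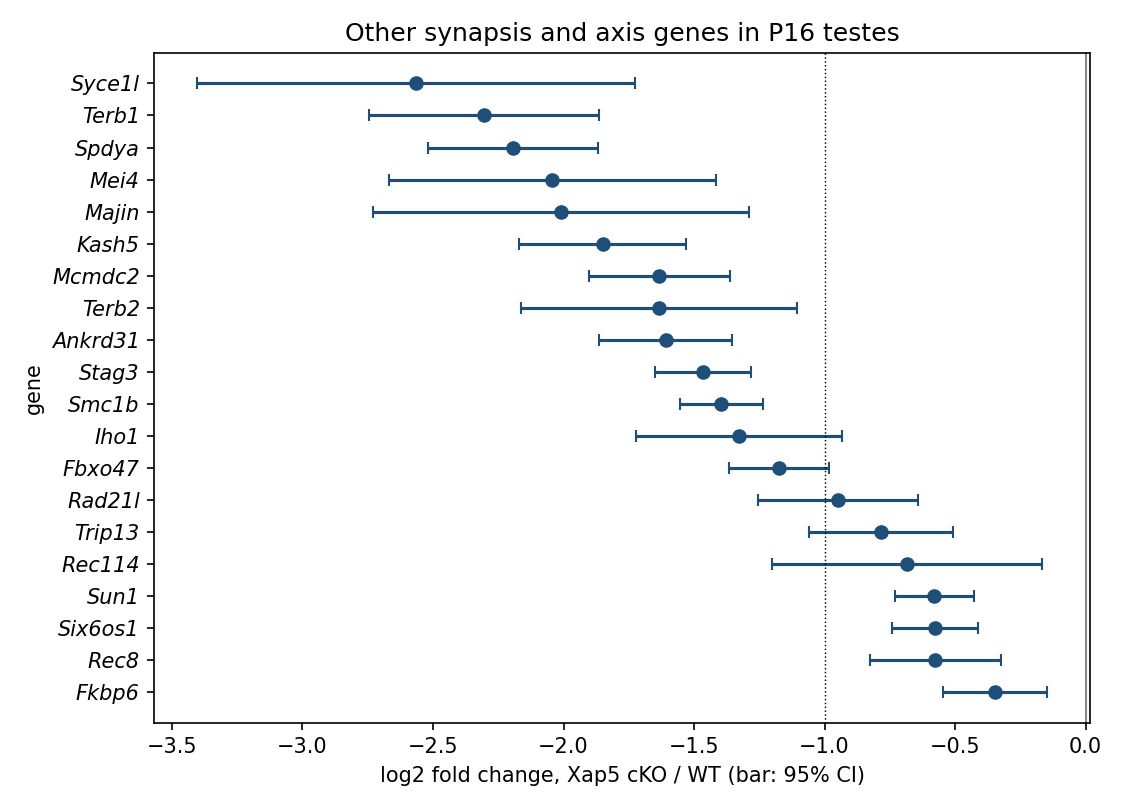
Log2 fold change (*Xap5* cKO over WT, points with 95% confidence intervals) of 20 other synapsis and axis genes in P16 testes, without *Sycp2l*, which had 0 counts in the cKO. The dotted line marks a fold change of 2, and *Syce1l* (-2.57), *Terb1* (-2.30) and *Spdya* (-2.19) lie farthest to the left while *Fkbp6* (-0.35) lies nearest to 0.

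Genes of meiotic recombination and of meiotic entry were lower too. Of 21 recombination genes, 18 were downregulated and 0 upregulated, against 10.9% and 4.15% of all genes tested, with a median log2 fold change of -1.41. The 5 with the largest changes were *Spo11* (-2.74), which makes the meiotic breaks, *Hfm1* (-2.21), the most abundant of them in WT, *Psmc3ip* (-2.02), *Ccnb1ip1* (-1.91) and *Rnf212* (-1.90). All 4 entry genes in the testis table were downregulated, with a median of -1.55, and were *Stra8* (-1.93), *Meioc* (-1.75), *Ythdc2* (-1.36) and *Rbm46* (-1.31). *Meioc* was the most abundant, at 384 CPM in WT and 114 CPM in the cKO. The recombination genes together had 1196, 1164 and 1007 CPM in WT and 399, 416 and 430 CPM in the cKO, and the entry genes 821, 822 and 721 against 253, 250 and 272 CPM.

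Most spermatocyte and pan germ cell markers fell in the same libraries, while lists of other cells differed among themselves. For comparison with these and the following testis lists, 10.9% of all genes tested were downregulated and 4.15% upregulated. Of 7 pan germ cell markers 5 were downregulated, with a median log2 fold change of -1.80, and they were *Tdrd1* (-2.44), *Ddx4* (-2.21), *Tdrd9* (-2.18), *Rnf17* (-1.80) and *Stk31* (-1.55). Their summed level was 2811, 2853 and 2576 CPM in WT and 907, 1001 and 1070 CPM in the cKO, with *Dazl* the most abundant, which was not called and whose log2 fold change of -0.96 was smaller in size than that of the 8 downregulated members. Pachytene spermatocyte markers fell further, with 6 of 10 downregulated and a median of -2.76. *Piwil1* (-6.30), *Ldhc* (-6.19), *Pgk2* (-5.10), *Clgn* (-3.33) and *Ccna1* (-2.83) changed most, and *Hspa2* was the most abundant, at 556 CPM in WT and 132 CPM in the cKO. The summed pachytene level was 2354, 2292 and 1282 CPM in WT, with WT replicate 3, which was nearer to the cKO than the other WT libraries over all genes, the lowest as for all 9 members in CPM, and 303, 295 and 390 CPM in the cKO.

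Of 7 leptotene and zygotene markers 6 were downregulated (median -1.44), at a summed 526, 497 and 417 CPM in WT and 174, 175 and 197 CPM in the cKO, led by *Ankrd31*. Besides *Spo11* and *Ankrd31*, they included *Spata22* (-1.52), *Dmc1* (-1.44) and *Meiob* (-1.31), the largest changes. Spermatogonial markers changed less. Of 15 of them, 4 were downregulated, *Id4* (-1.54), *Sohlh1* (-1.15), *Sall4* (-1.15) and *Lin28a* (-1.07), the median was -0.40 and the summed level was 880, 921 and 983 CPM in WT and 682, 721 and 665 CPM in the cKO, led by *Uchl1*, and at an adjusted p-value under 0.05 alone 9 of the 15 were lower and 2 higher in the edgeR fit. Spermatid markers were scarce, with 3 of 8 round spermatid markers tested and *Lrrc34* (-5.02) downregulated and the most abundant, 2 downregulated without cKO replicate 3, and *Spaca7* at 0 counts. Of the elongating spermatid markers, led by *Gapdhs*, none was called in either direction by edgeR, by DESeq2 or at an unadjusted p-value under 0.05 with a fold change above 2.

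Sertoli cell markers had a median log2 fold change of 0.81 and a summed level of 4754, 5190 and 4978 CPM in WT against 8381, 8261 and 9799 CPM in the cKO. Of 10 tested, 9 were higher at an adjusted p-value under 0.05 in the edgeR fit, and *Amh* (1.14) passed the fold change threshold as well. Leydig cell markers had a median of 1.04, with *Lhcgr* (1.51), *Insl3* (1.22) and *Hsd3b1* (1.06) upregulated of 6 tested, and a summed 336, 193 and 312 CPM in WT and 649, 737 and 389 CPM in the cKO. Of 6 leukocyte markers tested, 5 were upregulated, against 4.15% of all genes tested. They were *Csf1r* (1.25), *Adgre1* (1.16), *Itgam* (1.03), *Cd68* (1.02) and *Lyz2* (1.02), the last being the most abundant. *S100a8* and *S100a9* had 0 counts throughout. The upregulated leukocyte markers numbered 2 without WT replicate 3 and 3 without WT replicate 2, cKO replicate 1 or cKO replicate 2, and the Leydig cell markers 6 without cKO replicate 3 and 2 without WT replicate 2. The Sertoli cell markers numbered 2 without WT replicate 2 or cKO replicate 1. Myoid markers (led by *Acta2*, median 0.27) and erythroid markers (led by *Hbb-bs*, median 0.46) had no call in either direction, also at an unadjusted p-value under 0.05 with a fold change above 2 and with DESeq2. At an adjusted p-value under 0.05 alone 3 of the 6 myoid markers were higher in the edgeR fit, and 2 erythroid markers were upregulated without cKO replicate 3. Of the epididymal list, 5 of 9 genes had 0 counts and *Aqp9*, its most abundant gene, was downregulated (-6.41), and of the general epithelial list, led by *Epcam*, *Krt18* was upregulated (3.41), with 0, 4 and 6 counts across WT, against 28, 38 and 36 across the cKO. The part of these cell types in the lower level of the synaptonemal complex and HORMA genes was not tested.

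The genes most like the members in P16 testes were sought among 12678 genes with a mean of at least 5 CPM. The measure was the Pearson correlation over the 6 libraries with the mean of the members' centred log2 CPM. The 5 highest were *Nt5el* (r = 0.9997), *Ndufb7* (0.9996), *4933427D14Rik* (0.9992), *D1Pas1* (0.9992) and *Dazap1* (0.9991). The 6 libraries share the split by genotype, so that any gene lower in the cKO correlates with the members. The log2 fold changes of these 5 genes were -2.43, -0.37, -0.86, -1.69 and -0.62.

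In P56 sperm, the 9 genes were scarce with the exception of *Syce2* and *Syce1*, and the central element genes *Syce3* and *Syce1* were higher in *Xap5l* KO sperm. *Syce3* was the only upregulated member, at 2.36 times its WT level, and 1 of 9 is close to the share of 7.59% among all genes tested. *Syce1* reached 1.92 times its WT level, below the fold change threshold. For axis genes no change passed the test, with *Sycp2*, *Sycp3*, *Hormad1* and *Hormad2* at 115%, 78.8%, 67.5% and 72.4% of their WT level.

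By the same rule, 7.59% of the 20945 genes tested in sperm were upregulated and 1.27% downregulated, against 1 of 9 and 0 of 9 members. No member was downregulated with DESeq2 or at an unadjusted p-value under 0.05 with a fold change above 2 either. All KO libraries were above all WT libraries for 2 of 9 members, *Syce1* and *Syce3*, and below them for 1, *Hormad1*, against 19.2% of all tested genes above and 19.2% below. The median log2 fold change was 0.20 for the members and -0.08 for all tested genes, with quartiles of -0.48 and 0.55. The calls in sperm rested on single libraries. When WT replicate 2, *Xap5l* KO replicate 2 or WT replicate 3 was left out, 1 gene was upregulated among all genes tested and 0 members were, and without *Xap5l* KO replicate 1 the numbers were 483 and 0. Without WT replicate 1 or *Xap5l* KO replicate 3, 2 members were upregulated, *Syce1* being the added one.

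**Figure D3:**
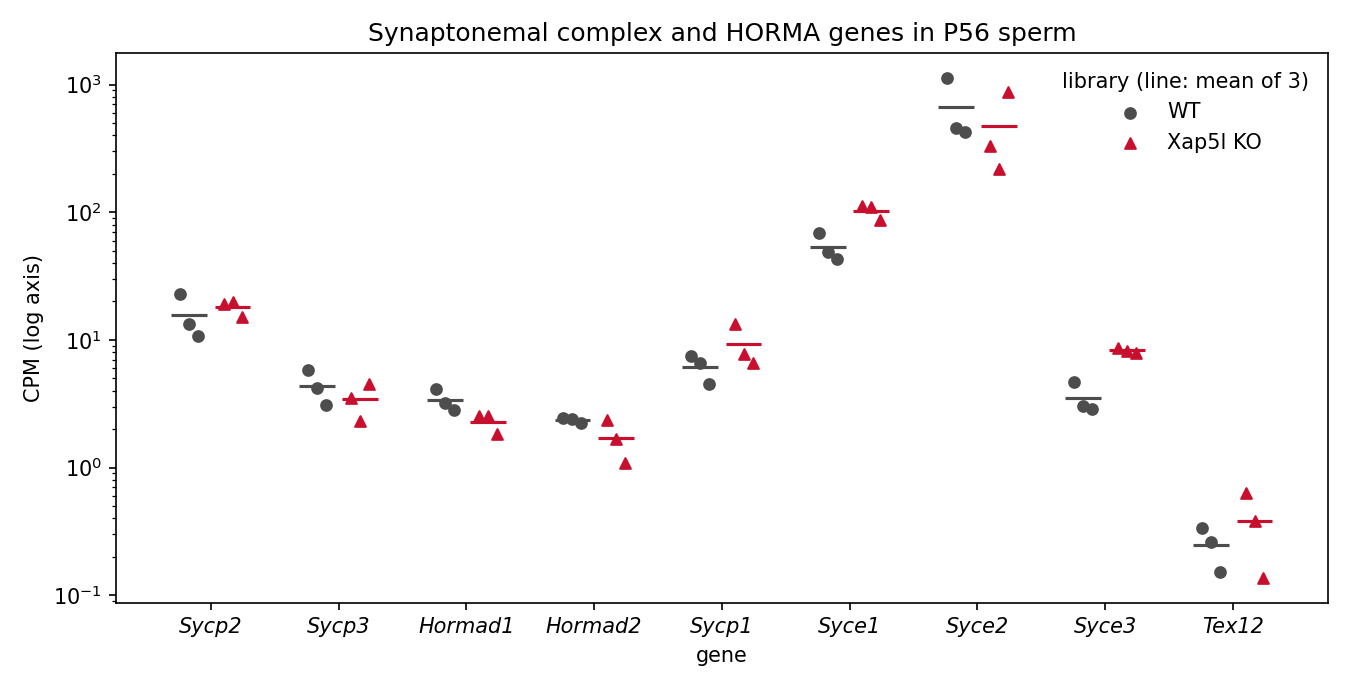
Level of each gene in each P56 sperm library, as CPM on a log axis, with WT as grey circles, *Xap5l* KO as red triangles and the mean of 3 libraries as a line. *Syce3* (2.85 to 4.64 CPM in WT, 7.93 to 8.68 CPM in the KO) and *Syce1* do not overlap between genotypes, and *Syce2* spans 219 to 1127 CPM across the 6 libraries.

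Of the axial and lateral element genes, *Sycp2* had 754, 558 and 501 counts across WT sperm, against 667, 1099 and 877 across *Xap5l* KO sperm. The genotypes overlapped both in counts and when scaled to library size, at 15.7 ± 6.38 and 18.0 ± 2.57 CPM (log2 fold change 0.20, SE 0.286, adjusted p = 0.640 by the quasi-likelihood test of edgeR with Benjamini-Hochberg adjustment). For *Sycp2* it turned to -0.01 without WT replicate 3, and was 0.09 without WT replicate 2, 0.12 without KO replicate 2, 0.39 without KO replicate 3 and 0.57 without WT replicate 1. *Sycp3* had 192, 178 and 143 counts across WT, against 122, 129 and 265 across the KO, at 4.38 ± 1.38 and 3.45 ± 1.11 CPM (log2 fold change -0.34, SE 0.328, adjusted p = 0.484, same edgeR test). The genotypes overlapped. Leaving out WT replicate 1 gave a log2 fold change of -0.09, and it was -0.12 without KO replicate 2, -0.52 without KO replicate 3 and -0.55 without WT replicate 3. *Chpt1*, which shares exonic bases with *Sycp3*, also had its highest KO count in replicate 3, with 3417, 3468 and 15736 counts in the KO and 5840, 3999 and 3618 in WT.

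*Hormad1* had 137, 135 and 131 counts across WT sperm, against 88, 140 and 107 across the KO. Scaled to library size, all KO libraries were below all WT libraries, at 2.29 ± 0.395 against 3.40 ± 0.684 CPM, but the difference did not pass the test (log2 fold change -0.57, SE 0.277, adjusted p = 0.181, edgeR). *Hormad2* had 81, 101 and 103 counts across WT, against 83, 93 and 63 across the KO, with overlapping libraries (log2 fold change -0.47, SE 0.330, adjusted p = 0.330, edgeR). The transverse filament gene *Sycp1* had 245, 276 and 209 counts across WT, against 469, 429 and 386 across the KO, or means of 6.17 and 9.25 CPM. KO replicates 1 (13.4 CPM) and 2 (7.75 CPM) were above all WT libraries and KO replicate 3 (6.62 CPM) was within their range (log2 fold change 0.58, SE 0.308, adjusted p = 0.210, edgeR). *Sycp1* had a log2 fold change of 0.22 without KO replicate 1 and 0.39 without WT replicate 3. That of *Hormad1* was -0.35 without KO replicate 3, and for *Hormad2* -0.15 without KO replicate 3 and -0.77 without KO replicate 1.

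*Syce1* had 2265, 2061 and 2001 counts across WT sperm, against 3946, 6109 and 5036 across *Xap5l* KO sperm. Each KO library was above each WT library, also in CPM, at 53.6 ± 13.4 in WT and 103 ± 14.5 in the KO. The log2 fold change was 0.94 (SE 0.241, adjusted p = 0.0364 by the quasi-likelihood test of edgeR with Benjamini-Hochberg adjustment). The fold change threshold was passed without WT replicate 1 (1.15), without KO replicate 3 (1.13) and without a filter on low counts (1.01). The adjusted p was above 0.05 in edgeR without any of the other 4 libraries, up to 0.168, and with library sizes alone (0.0550).

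*Syce3* had 153, 127 and 132 counts across WT sperm, against 304, 453 and 462 across *Xap5l* KO sperm. The KO libraries were close to each other and all above WT, at 8.26 ± 0.383 against 3.50 ± 0.990 CPM. The log2 fold change of 1.24 (SE 0.249) had an adjusted p-value of 0.0190 in the quasi-likelihood test of edgeR with Benjamini-Hochberg adjustment. The call was lost in edgeR without WT replicate 2 (adjusted p = 0.0975), WT replicate 3 (0.0999), KO replicate 1 (0.0547) or KO replicate 2 (0.0709), with log2 fold changes of 1.14, 1.10, 1.20 and 1.25 in that order.

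*Syce2* was by far the most abundant member in sperm, with 37143, 19231 and 19662 counts across WT, against 11536, 12118 and 51177 across the KO. It made up 90.6%, 84.8% and 85.9% of the members' summed CPM in WT and 66.9%, 58.9% and 87.7% in the KO. WT replicate 1 and KO replicate 3 stood above the other libraries in both counts and CPM, so that the genotypes overlapped, at 669 ± 397 and 475 ± 353 CPM. The log2 fold change of -0.49 (SE 0.543, adjusted p = 0.541, edgeR) was 0.10 without WT replicate 1 and -1.21 without KO replicate 3 (adjusted p = 0.0940, edgeR with Benjamini-Hochberg adjustment). It was -0.15 without KO replicate 2, -0.29 without KO replicate 1 and -0.74 without WT replicate 3. *Odf1*, a flagellar gene named after its values were seen, also had its highest counts in these libraries, with 975613, 506434 and 567090 in WT and 328087, 361366 and 1015380 in the KO. *Tex12*, the partner of *Syce2*, was near the detection limit, with 11, 11 and 7 counts across WT, against 22, 21 and 8 across the KO (log2 fold change 0.59, SE 0.620, adjusted p = 0.519, edgeR). For *Tex12* the log2 fold change was 0.07 without KO replicate 1, 0.32 without WT replicate 3 and 1.09 without KO replicate 3.

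Per length, the order in sperm differed from that in testes, where the tables were normalized separately. In WT sperm *Syce2* had 340 ± 201 CPM per kb, followed by *Syce1* (36.7 CPM per kb) and *Syce3* (6.33). *Sycp3*, *Sycp2*, *Hormad1* and *Sycp1*, at 3.47, 2.62, 1.97 and 1.73 CPM per kb, each overlapped with the next. *Hormad2* (0.863 CPM per kb) and *Tex12* (0.245) were lowest and separate. In *Xap5l* KO sperm *Syce2* (242 ± 179 CPM per kb), *Syce1* (70.6) and *Syce3* (14.9) again led without overlap. *Sycp2*, *Sycp3* and *Sycp1*, at 3.01, 2.73 and 2.60 CPM per kb, overlapped, *Hormad1* followed at 1.33, and *Hormad2* (0.625) and *Tex12* (0.376) overlapped at the end. So *Sycp3* had the highest CPM per kb of the 9 genes in testes, and *Syce2* had it in sperm.

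Relative to the other 8 genes in the same library, *Syce3* and *Syce1* shifted up by 1.25 and 0.90 log2 units in *Xap5l* KO sperm, and *Hormad1* and *Hormad2* had shifts of -0.81 and -0.78. None of these 4 genes overlapped between genotypes on this scale, each with an exact two-sided permutation p of 0.1, the smallest possible. The other 5 overlapped. The separation depended on the reference, since *Syce1* over *Sycp1* counts was 9.24, 7.47 and 9.57 in WT and 8.41, 14.2 and 13.0 in the KO, with overlap. *Syce1* and *Syce3* over *Ddx4*, and *Hormad1* and *Hormad2* over *Sycp3*, overlapped as well, whereas *Syce3*, *Hormad1* and *Hormad2* over *Sycp1* did not.

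**Figure D4:**
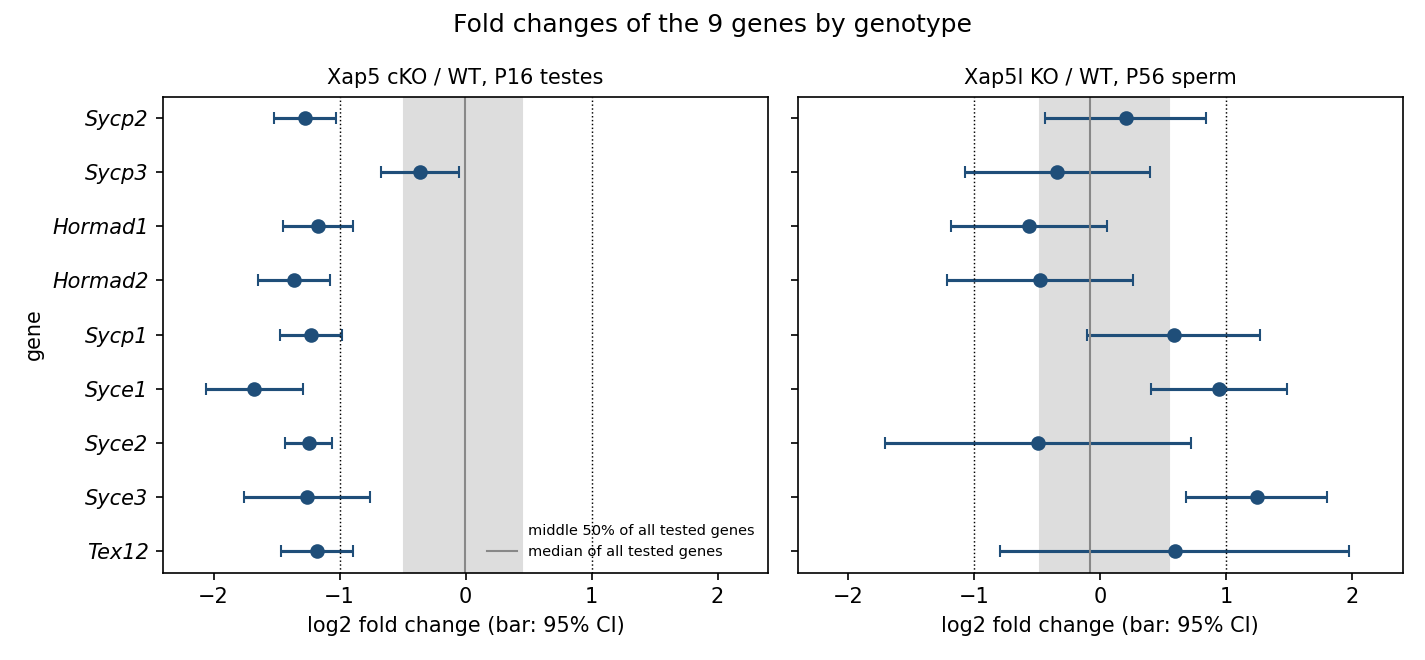
Log2 fold changes of the 9 genes (points, bars are 95% confidence intervals) in *Xap5* cKO testes and *Xap5l* KO sperm, with the median and the middle 50% of all tested genes in grey and dotted lines at a fold change of 2. In testes 8 genes lie between -1.68 and -1.17 and *Sycp3* at -0.36, and in sperm the genes spread from -0.57 (*Hormad1*) to 1.24 (*Syce3*).

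Of the other 21 synapsis and axis genes, 17 were tested in sperm. Of these, 3 were upregulated, against 7.59% of all genes tested, and 0 downregulated, against 1.27%. The count of 0 held with DESeq2 and at an unadjusted p-value. The upregulated genes were all meiotic cohesin genes, *Stag3*, *Smc1b* and *Rec8*. *Stag3* had 1066, 1103 and 1203 counts across WT, against 2624, 5805 and 2244 across the KO (log2 fold change 1.37, adjusted p = 0.0313, edgeR with Benjamini-Hochberg adjustment). *Smc1b* had 683, 630 and 458 against 1580, 2515 and 1454 (1.34, adjusted p = 0.0309), and *Rec8* 728, 706 and 893 against 1663, 2580 and 2093 (1.16, adjusted p = 0.0160, same edgeR test). KO replicate 2 was the highest for all 3 genes in counts. The fourth meiotic cohesin gene, *Rad21l*, was not tested, nor were *Sycp2l*, *Terb2* and *Mei4*, with at most 6 counts in a library.

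*Iho1* (1.18), *Spdya* (0.95), *Kash5* (0.91), *Syce1l* (0.46), *Sun1* (0.43), *Ankrd31* (0.34), *Rec114* (0.33), *Mcmdc2* (0.23), *Trip13* (0.21) and *Majin* (0.03) had positive log2 fold changes that were not called. *Fkbp6* (-0.08), *Terb1* (-0.09), *Fbxo47* (-0.20) and *Six6os1* (-0.57) had negative ones. The median was 0.34, and the summed level 136, 108 and 105 CPM in WT and 257, 283 and 159 CPM in the KO. The 3 calls were lost without WT replicate 2, WT replicate 3, KO replicate 1 or KO replicate 2, which left 0 of them, and 5 genes were upregulated without WT replicate 1 or KO replicate 3. With a replicate block, 2 of these genes were upregulated.

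Of the meiotic recombination genes, 19 were tested in sperm and *Psmc3ip* was upregulated (1.03), the median was 0.32 and the most abundant was *Mlh3*. The entry genes (4 tested, median -0.19, led by *Meioc*), the leptotene and zygotene markers (5 tested, median -0.06, led by *Ankrd31*) and the spermatogonial markers (10 tested, median -0.08, led by *Kit*, with *Nanos2* at 0 counts) had no call in edgeR or DESeq2, nor at an unadjusted p-value under 0.05 with a fold change above 2. Round spermatid markers were mostly upregulated, against 7.59% of all genes tested, and smaller parts of the other lists of later germ cells were. The single call among the recombination genes, and that among the elongating spermatid markers, are near this share of all genes. Of 8 round spermatid markers 6 were upregulated, led in size by *Spaca1* (1.80), *Sun5* (1.70), *Izumo1* (1.65), *Lrrc34* (1.51) and *Acrv1* (1.34), with a median of 1.42. Their summed level was 767, 469 and 495 CPM in WT and 1137, 909 and 915 CPM in the KO, with *Tssk2* the most abundant and none at 0 counts. Of 10 pachytene markers 4 were upregulated, *Hist1h1t* (1.69), *Hspa2* (1.67), *Clgn* (1.20) and *Ldhc* (1.05), the median was 0.74, and the summed level, led by *Pgk2*, was 2157, 1401 and 1277 CPM in WT and 2425, 2501 and 3094 CPM in the KO. *Rnf17* (1.20) and *Ddx4* (1.13) were upregulated among 7 pan germ cell markers, whose median was -0.36, and *Akap4* (1.09) among 10 elongating spermatid markers, with a median of 0.60 and led by *Smcp*. Without WT replicate 2, WT replicate 3, KO replicate 1 or KO replicate 2 none of these calls was left, except 5 round spermatid markers without KO replicate 1. With a replicate block, 2 pachytene markers and 0 elongating spermatid markers were upregulated. The elongating spermatid markers summed to 141928, 57909 and 69631 CPM in WT and 91912, 51140 and 70816 CPM in the KO, so that their sum did not follow the call of *Akap4*.

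Other cell types left their own traces in the sperm libraries, in which 1.27% of all genes tested were downregulated. *S100a9* (-2.09) was downregulated among 8 leukocyte markers, which had a median of -0.86 and summed to 773, 740 and 742 CPM in WT and 139, 350 and 484 CPM in the KO, led by *Lyz2*. *Cldn11* (-1.53) was downregulated among 8 Sertoli cell markers, with a median of -0.50. The most abundant of them, *Clu*, was at 687 CPM in WT and 1204 CPM in the KO and was not called, and it carried the summed level, which was 642, 722 and 761 CPM in WT against 1331, 1272 and 1053 CPM in the KO, in the other direction than *Cldn11* and the median. Leydig cell (4 tested, median -1.17, led by *Insl3*), myoid (6 tested, median 0.15, led by *Actg2*), erythroid (4 tested, median -1.56, led by *Hbb-bs*), epididymal (6 tested, median -0.33, led by *Crisp1*, with *Lcn9* at 0 counts) and general epithelial markers (5 tested, median -0.44, led by *Krt19*) had no call in the edgeR fit. Other edgeR fits called 2 erythroid markers lower with library size alone or a replicate block, 1 myoid marker higher without WT replicate 1 and 1 epididymal marker lower without KO replicate 3. The erythroid markers summed to 16339, 3300 and 5175 CPM in WT, with replicate 1 the highest, and 4030, 1206 and 2861 CPM in the KO. At an unadjusted p-value under 0.05 with a fold change above 2, 2 Leydig cell and 3 erythroid markers were lower, and DESeq2 called 1 Leydig cell marker lower. Leaving out WT replicate 2, KO replicate 2 or WT replicate 3 removed both calls, that of *S100a9* also without KO replicate 1, and 5 leukocyte markers were downregulated without KO replicate 3. The part of other cells, and of spermatids or spermatocytes in the sperm samples, in the values of *Syce1* and *Syce3* was not tested.

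Over the 6 sperm libraries, the genes most like the mean of the members, among 10981 with a mean of at least 5 CPM, were *Mbd3l1* (r = 0.986), *Dnaaf2* (0.985), *Cdyl* (0.977), *Gfra4* (0.972) and *Spata31d1b* (0.968). None of these 5 was called, and their log2 fold changes were 0.28, 0.10, 0.16, 0.11 and 0.18. The members' mean weighs each gene equally, so that *Syce2* does not dominate it.

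In testes and sperm together, *Syce1* and *Syce3* went in opposite directions, with log2 fold changes of -1.68 and -1.26 in *Xap5* cKO testes and 0.94 and 1.24 in *Xap5l* KO sperm. These 2 genes were picked because all KO sperm libraries were above all WT libraries for them. *Syce1* was below the fold change threshold in sperm. For each gene, 2 of the 6 edgeR fits that left out 1 sperm library had an adjusted p under 0.05. The samples differ in tissue, age and targeted gene, and the difference between the comparisons was not tested.

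Because 8 of the 9 genes were downregulated in *Xap5* cKO testes, the promoters of all 9 were searched for short motifs, in windows of 300 bases (250 before and 50 after the start) from RefSeq on GRCm38.p6. All 9 genes matched, with 12 windows, as *Hormad1*, *Syce2* and *Syce3* have 2 starts each and the 2 windows of each of these genes overlap. The E-box CACGTG, which reads the same on both strands, was present for 5 of the 9 genes, *Hormad1*, *Syce2*, *Sycp1*, *Sycp3* and *Tex12*, and for 8.09% of the 27025 gene symbols with a promoter. The other motifs were searched on both strands. CNCCTCAG, the motif reported for STRA8 and MEIOSIN, was found for *Hormad2*, *Syce2*, *Sycp1* and *Tex12*, 4 of 9, against 9.12% of all symbols. The GC box GGGCGGGG was found for 4 of 9 (*Sycp2*, *Sycp3*, *Syce2* and *Syce3*) against 19.6%, the E2F motif GGCGGGA for 3 of 9 (*Hormad1*, *Syce2* and *Tex12*) against 12.7%, and the CRE motif TGACGTCA for 0 of 9 against 2.03%. Per window of 300 bases, the shares over all 32851 promoters were 7.15% for the E-box, 7.94% for CNCCTCAG, 17.6% for the GC box, 11.3% for the E2F motif and 1.79% for the CRE motif. The only overlap between different motifs was in *Syce2*, between CNCCTCAG and GGCGGGA. The window of *Syce1* held none of the 5 motifs. A match is a description of letters and not of binding.

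Sequences of 60 bases around the E-boxes are shown for the 4 genes whose E-boxes lie outside annotated exons, as the E-box was the motif found for the most members. Capitals mark the E-box. The *Hormad1* sequence is chr3:95559611-95559670 on the plus strand (66 to 7 bases before the start), *Sycp1* chr3:102936162-102936221 on the minus strand, *Sycp3* chr10:88459506-88459565 on the plus strand and *Tex12* chr9:50561329-50561388 on the minus strand, all from RefSeq on GRCm38.p6 and 5′ to 3′ on the strand of the gene. *Hormad1* and *Sycp3* hold 2 E-boxes each in this stretch.
Hormad1: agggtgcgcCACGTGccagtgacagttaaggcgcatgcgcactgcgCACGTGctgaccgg
Sycp1: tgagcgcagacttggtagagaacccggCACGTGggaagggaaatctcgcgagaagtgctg
Sycp3: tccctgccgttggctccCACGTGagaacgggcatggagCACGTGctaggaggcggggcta
Tex12: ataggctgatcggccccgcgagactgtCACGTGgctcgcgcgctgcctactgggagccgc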

How the data were processed

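RNA counts per gene were read for 6 P56 sperm and 6 P16 testis libraries. The values are count data deposited by the authors, who, per their processing notes, used FastQC 0.11.2, Trimmomatic 0.36, HISAT2 2.1.0 and DESeq2 1.12.4 with a fold change above 2, on poly(A) RNA read paired-end. The methods also name StringTie for assembly of the mapped reads. For the libraries they name a NEBNext Ultra II RNA kit, without stating whether strand was kept. The tool behind the deposited counts, the strand setting and the treatment of multimapping reads are not given in the sources used here. Each tissue was fitted separately in R 4.3.3 with edgeR 4.0.16 (filterByExpr, TMM, quasi-likelihood test, Benjamini-Hochberg adjustment), and genes were called at an adjusted p under 0.05 and a fold change above 2. The scripts were tested on simulated data. Depth limits precision for genes with few counts, such as *Tex12* in sperm. Alternatives were DESeq2 1.42.0, RLE size factors, library size alone, no filter, at least 10 counts in every library, an adjusted p under 0.01, unadjusted p, no fold change threshold, summed entries of a gene, a replicate block and each library left out. Exon lengths and positions came from GENCODE M21. Tables were made in Python 3.11.15 with pandas 2.3.3 and scipy 1.17.1, and plots with matplotlib 3.10.9. The members and lists were chosen with earlier results of these data known. Named from a list were its called genes, at most 5 by size of change, its most abundant gene and markers at 0 counts, and all genes of the synapsis and axis list. Protein sequences were not analysed here. No sample was left out of the fits reported first.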

Additional observations from a re-analysis of the deposited data

How the results depend on the processing

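The downregulation of 8 members in *Xap5* cKO testes held in every alternative. In *Xap5l* KO sperm the number of upregulated members was 1, and it was 2 without a filter or without a fold change threshold, 0 at an adjusted p under 0.01 and 0 to 2 with 1 library left out. The log2 fold change of *Syce2* turned to 0.10 without WT replicate 1 and was -1.21 without KO replicate 3, and that of *Sycp2* turned to -0.0130 without WT replicate 3 and was 0.57 without WT replicate 1. The cause was not tested. Over all genes in sperm, 1 to 2402 were upregulated and 1 to 443 downregulated with 1 library left out. Upregulated genes numbered 0 at an adjusted p under 0.01 in edgeR, against 2385 at an unadjusted p and 1915 with DESeq2. Downregulated genes numbered 0 at an adjusted p under 0.01 in edgeR, 605 at an unadjusted p, 342 with DESeq2, 149 with library size alone and 643 without a fold change threshold. In testes, 4202 genes were higher and 4734 lower without a fold change threshold. The median log2 fold change of all genes in sperm was 0.13 without a filter and 0.10 with DESeq2.

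With a replicate block, 1147 genes were upregulated and 147 downregulated in sperm, and 661 and 1782 in testes, with 1 member upregulated in sperm and 8 downregulated in testes. The correlations of samples of the same number were 0.149, -0.0229 and -0.0809 in sperm and 0.0125, -0.0141 and -0.00805 in testes, and not every sample correlated best with its own number, so the samples were not treated as paired. The block changed the call of no member. In sperm, fewer other synapsis and axis genes, pachytene markers and elongating spermatid markers were upregulated with it.

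With 3 libraries per group, small differences cannot be seen, above all in sperm, where the common biological coefficient of variation was 0.287 against 0.174 in testes.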
